A study of Mus musculus with 4 samples.

Results

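The respiratory chain genes described here are the 98 genes, of 32285 in the files, whose symbols name a subunit of complexes I to V. They were chosen by symbol alone: 13 are encoded by the mitochondrial genome and 85 by the nucleus. The nuclear members comprise 37 genes of complex I, 4 of complex II, 8 of complex III, 19 of complex IV (with Ndufa4, now placed there) and 17 of complex V. The mitochondrial members comprise 7, 1, 3 and 2 genes of complexes I, III, IV and V. Complex II has 0 mitochondrial members.

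Complexes I and II pass electrons from NADH and succinate to ubiquinone, complex III passes them to cytochrome c, and complex IV passes them to oxygen. Complexes I, III and IV pump protons across the inner mitochondrial membrane, and complex V, the ATP synthase, uses the gradient to make ATP. Because all complexes except II combine subunits from both genomes, proteins encoded in both must be assembled together, although their genes are transcribed by different polymerases.

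The cells were CD45+ immune cells sorted from crypts of the small intestine of male mice, 2 samples on a control diet and 2 fed extra cystine, in which a disulphide joins a pair of cysteines. No genetic change is given for either group, and the groups were taken from sample titles because the treatment field reads "Control" in all 4. Each sample is a 10x 5′ library with 18000 cells loaded. Whether a sample is 1 mouse or a pool is not stated. The p-values of the diet tests measure the spread between these 4 samples within a diet, which may be technical. Tests with the sample as a block, as between cell types, measure the spread left after differences between samples are removed.

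Per sample, 13479 to 16310 cells were kept, with a median of 1295 to 1709 unique molecular identifiers (UMIs, counted transcript molecules) per cell. Each pair of libraries shared 335 to 454 barcodes. Ptprc, which encodes CD45, was at 829 to 1035 CPM (UMIs scaled to a common library total) in the 4 samples. Cell types were set per cell by marker UMIs. The 7 types with at least 30 cells in every sample were γδ T (gd), CD8αα αβ T, CD8αβ T, CD4 T (37 to 82 cells), cycling T (79 to 150), B and plasmacytoid dendritic cells (pDC, 194 to 463). CD8αα αβ T cells needed UMIs of Cd3, Cd8a and the T cell receptor α and β genes, and none of Cd8b1, Trdc or Cd4. At this depth Cd8b1 can be missed in a cell, so some CD8αβ T cells may be counted as CD8αα αβ T cells. Cells with markers of several types, and 5458 to 6753 cells per sample without a type, were left out. Bst2, a pDC marker not used in the rule, was at 4371 to 5036 CPM in pDC and 73.3 to 82.7 CPM in γδ T cells.

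Sequences are shown first for the member whose level separated the types most, Cox6a2, and for its paralog Cox6a1. Both encode subunit VIa of complex IV: Cox6a1 is the widespread form, and Cox6a2 is known from heart and skeletal muscle. The coding sequences, from GENCODE M21 on GRCm38, are 339 and 294 bases long. Their transcripts span chr5:115345642-115348981 and chr7:128205435-128206387, both on the minus strand. In a global alignment 205 of 283 aligned bases were identical (72.4%), and the longest identical stretch was 12 bases. Capitals mark aligned bases that differ, and Cox6a1 is printed from coding base 40. Lower case marks identical bases and also bases without a partner in the alignment.
Cox6a1: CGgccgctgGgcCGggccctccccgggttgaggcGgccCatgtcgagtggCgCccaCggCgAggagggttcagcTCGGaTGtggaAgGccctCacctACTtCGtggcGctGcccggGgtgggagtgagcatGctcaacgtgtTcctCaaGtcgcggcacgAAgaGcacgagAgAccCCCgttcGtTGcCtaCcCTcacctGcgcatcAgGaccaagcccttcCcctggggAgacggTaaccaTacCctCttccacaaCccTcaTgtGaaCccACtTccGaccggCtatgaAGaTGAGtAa
Cox6a2: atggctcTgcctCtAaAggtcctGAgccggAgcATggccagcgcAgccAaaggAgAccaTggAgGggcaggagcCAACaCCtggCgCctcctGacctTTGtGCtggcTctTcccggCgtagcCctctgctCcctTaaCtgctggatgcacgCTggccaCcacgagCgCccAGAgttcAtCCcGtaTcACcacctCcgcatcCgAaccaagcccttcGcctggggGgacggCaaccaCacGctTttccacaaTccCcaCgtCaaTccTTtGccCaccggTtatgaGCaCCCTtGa

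Promoters of nuclear members, from RefSeq on GRCm38.p6, were searched on both strands because many nuclear members moved together among types. The window ran from 250 bases before to 50 after the gene start, and 67 of 85 nuclear members had one. GCATGCGC, the core bound by NRF1 (nuclear respiratory factor 1), was in 10 of 67 (14.9%) and in 3.05% of all 27025 genes with a promoter. CCGGAAG, an ETS family core, was in 17 (25.4%) and in 9.93%, and AAGATGGCG, a YY1 core, was in 7 (10.4%) and in 1.64%. A match is a description of the letters, not a binding site. The 10 members with the NRF1 core are shown with it in capitals and 10 bases on either side, all read along the gene's strand. They lie, in the order printed, at chr2:36049329-36049356 (minus), chr4:140961207-140961234 (plus), chr5:108434430-108434457 (minus), chr5:115349101-115349128 (minus), chr9:44920965-44920992 (minus), chr9:108936670-108936697 (plus), chr10:80406808-80406835 (minus), chr15:82354357-82354384 (minus), chr15:102671070-102671097 (minus) and chr17:56717694-56717721 (plus).
Ndufa8: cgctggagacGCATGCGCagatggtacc
Sdhb: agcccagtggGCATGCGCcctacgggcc
Atp5k: tcactgcggcGCATGCGCctttctggct
Cox6a1: ggaacggggcGCATGCGCgctctcgctc
Atp5l: aaccaataacGCATGCGCatttccccca
Uqcrc1: tccgctctgcGCATGCGCagcgcggctc
Uqcr11: tcgccttcacGCATGCGCtatacgtctg
Ndufa6: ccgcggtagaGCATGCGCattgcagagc
Atp5g2: ctccggccgcGCATGCGCagagccttcc
Ndufa11: tgcactgcgcGCATGCGCgcacgccttg

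Members took different shares of the RNA of each type. In γδ T cells the nuclear members held 2.65% and 2.87% of UMIs in the control samples and 2.63% and 2.67% in the cystine samples, and the mitochondrial members 0.850%, 0.719%, 0.742% and 0.890% in the same order. In pDC the nuclear share was 3.30% ± 0.162 (SD, n = 4) and the mitochondrial share 1.19% ± 0.0608. Without Cox6a2 the nuclear share of pDC was 2.91% ± 0.148. It was then beside 2.89% in CD8αβ T, 2.91% in CD4 T and 2.70% in γδ T cells. In B cells the shares were 2.33% ± 0.0672 and 1.05% ± 0.0524. The mitochondrial share of pDC, 1.11% to 1.24%, lay above all 4 values of γδ T cells, and so did that of B cells.

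Of the 7 tested types, the ratio of mitochondrial to nuclear UMIs was highest on average in B cells, at 0.417, 0.437, 0.473 and 0.484 in control replicates 1 and 2 and cystine replicates 1 and 2. Cycling T cells had the lowest mean, with 0.246, 0.205, 0.244 and 0.223. The values of these types did not overlap. B cells were sequenced to a median of 1094 to 1263 UMIs per cell, and their mean ratio was 0.375 in cells with at least 800 genes. The part of depth in this order was not tested. CD4 T cells, the smallest type, spread from 0.251 to 0.511. The nuclear share of B cells was the lowest of the 7 types as a share of all UMIs. With immunoglobulin, T cell receptor and ribosomal protein genes left out of the total it was 3.37%, beside 3.31% in γδ T cells, so this order depends on the denominator. In the types with too few cells to test, the mean nuclear share was 1.41% in plasma cells (1 to 32 cells per sample) and 2.84% in monocytes and macrophages, whose mean ratio was 0.219.

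**Figure D1:**
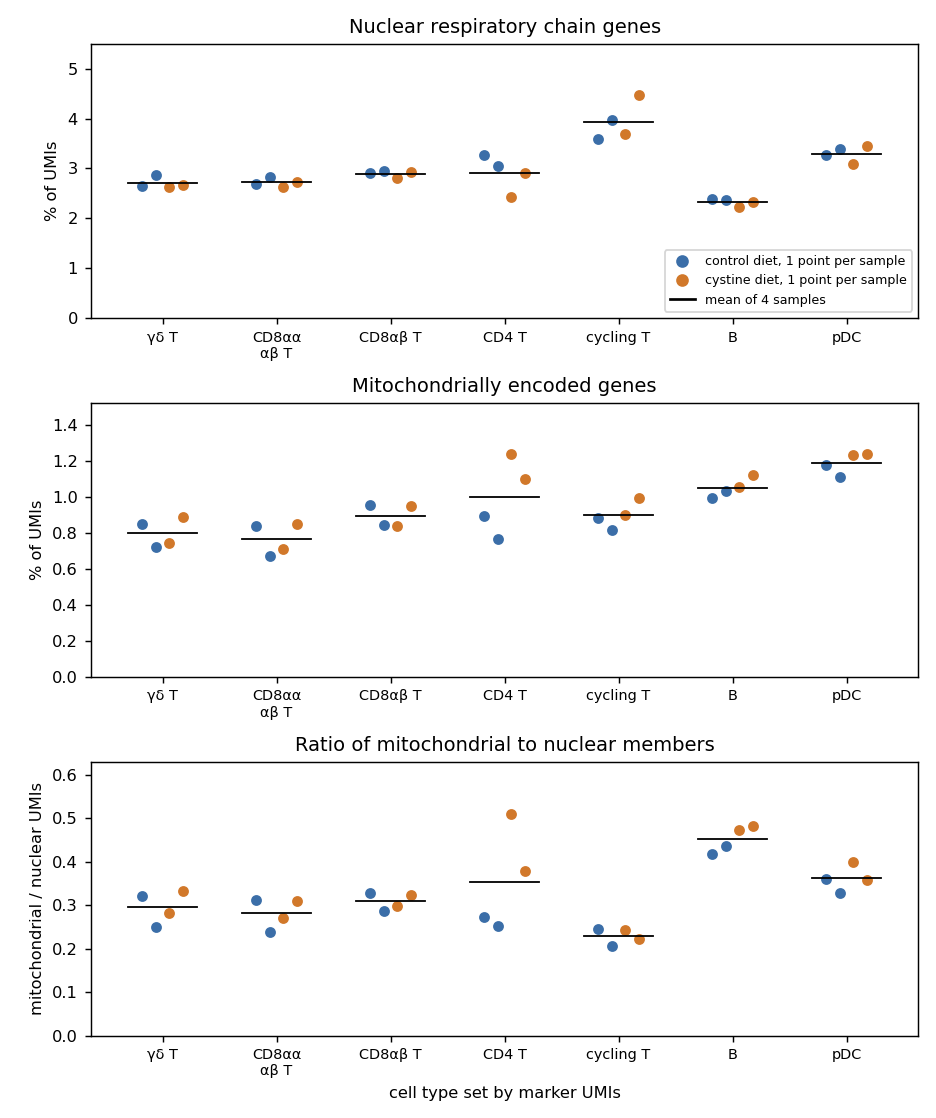
Share of all UMIs held by the nuclear members (top) and the mitochondrial members (middle), and their ratio (bottom), in each of the 7 tested cell types. Points are samples coloured by diet and lines are means of 4 samples. Of the 7 types plotted, B cells had the highest mean ratio, 0.453, and cycling T cells the lowest, 0.229. The nuclear values of pDC include Cox6a2, without which their mean share was 2.91%.

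Each type was then compared with the mean of the other 6 types in edgeR's quasi-likelihood test, with the sample as a block and Benjamini-Hochberg adjustment over the 9544 genes tested; a call is an adjusted p under 0.05. In this fit the 7 log2 fold changes of a gene sum to 0, so the comparisons of different types are not independent of each other. Of the members, 92 could be tested, 79 nuclear and 13 mitochondrial. All 92 differed among the 7 types in the F test, where 83.8% of all genes were called. Between the highest and the lowest type the mean level of 77 nuclear members with at least 20 CPM on average differed 1.24- to 2.62-fold, with a median of 1.80, and that of the mitochondrial members 1.69- to 2.48-fold, with a median of 2.02. Cox6a2, listed at 0 in CD4 T cells, is not in that range. SE is the absolute log2 fold change divided by the square root of the test's F statistic. CPM here are scaled by edgeR's TMM factors. They are not compared between genes.

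In γδ T cells, 67 members were lower and 2 higher than in the other types, where 21.1% of all genes were called lower, 30.5% higher and 51.6% in either direction. The lower members were 55 of 79 nuclear and 12 of 13 mitochondrial genes, with median log2 fold changes of -0.24 and -0.38 beside 0.06 over all genes. All 8 nuclear members of complex III, 15 of 17 of complex V, 21 of 36 of complex I, 9 of 14 of complex IV and 2 of 4 of complex II were lower. Ndufa4 was at 389 ± 49.4 CPM (SD, n = 4) in γδ T cells (log2 fold change -0.67, SE 0.07, edgeR adjusted p = 1.48e-10). Uqcrfs1, the Rieske iron-sulphur protein of complex III, was at 134 ± 17.6 CPM (-0.65). Sdhb, the iron-sulphur subunit of complex II, was at 186 ± 14.8 CPM (-0.61), and Atp5c1, the γ subunit of the ATP synthase, had -0.61. The members called higher were Ndufa13, a supernumerary subunit of complex I (0.17, edgeR adjusted p = 0.00816), and the low-level Cox7a1 (0.91).

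CD8αα αβ T cells had the same direction: 62 members were lower and 1 higher, where 18% and 25.1% of all genes were (43% in either direction). The 12 mitochondrial genes lower there had log2 fold changes of -0.35 to -0.71. CD8αβ T cells had 2 members higher and 8 lower beside 15.5% and 7.12% of all genes (22.6% in either direction). This balance depended on the setting. The shares of all genes just given belong to the main fit, and those of the alternatives that follow are not given. With DESeq2 size factors 1 nuclear member was higher and 14 nuclear and 4 mitochondrial members were lower. In cells of 1000 to 2000 UMIs, where fewer types were compared, 45 nuclear members were higher and 1 nuclear and 1 mitochondrial member lower. Without cystine replicate 2, 4 nuclear members were higher and 3 lower. Ndufa10, a complex I subunit, was at 205, 174, 195 and 171 CPM in the 4 CD8αβ T samples (0.38, SE 0.08, edgeR adjusted p = 0.00018). CD4 T cells had 1 member higher and 5 lower, beside 4.4% and 2.33% of all genes. Of these 6 calls (6.73% of all genes), leaving out 1 library gave 2 (control replicate 2), 3 (cystine replicate 1), 1 (cystine replicate 2) or 9 (control replicate 1).

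The cycling T cells had the largest number of nuclear members higher, 68 of 79, with 1 lower, where 23.2% of all genes were called higher, 10.3% lower and 33.5% in either direction. The median log2 fold change was 0.50 for nuclear members and -0.06 for mitochondrial members, of which 1 was higher (mt-Nd1) and 1 lower (mt-Co1). Of the epithelial and mast cell marker lists, 7 of 12 and 3 of 3 genes were higher in these cells. Krt8, an epithelial keratin, was at 143 to 377 CPM, beside 4.98 to 26.9 CPM in γδ T cells. The cells with at least 2 UMIs over epithelial or mast cell genes were 20 of 416 cycling T cells, and they held 5.57%, 14.7%, 7.96% and 33.4% of the UMIs of cycling T cells in control replicates 1 and 2 and cystine replicates 1 and 2. Without such cells in any type, a step added after the data were seen, 41 nuclear members were higher and 4 lower with a median of 0.23, and 5 mitochondrial members were lower with 0 higher. The nuclear share of cycling T cells was then 3.44% ± 0.166, beside 3.93% ± 0.395 with all cells. The 23.2% and 10.3% of all genes belong to the fit with all cells. The shares of all genes called without those cells are not given, so the counts of the 2 fits cannot be set against the same background.

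The nuclear genes named for cycling T cells kept their call in both sets of cells; those that were higher differed less in the second. Atp5g3, which encodes the c subunit of the ATP synthase ring, was at 1450, 1726, 1558 and 2231 CPM in the 4 cycling T samples and at 691 to 804 CPM in γδ T cells. Its log2 fold change was 1.06 (SE 0.07, edgeR adjusted p = 3.32e-15), and 0.71 without the cells carrying epithelial or mast cell UMIs, which were left out of every type. Cox5b, a nuclear subunit of complex IV, was at 1064, 1159, 1032 and 1354 CPM, above every sample of every other type, with 0.99 and 0.77. Sdhd, a membrane anchor of complex II, had 0.96 and 0.40. Atp5o, in the peripheral stalk of the ATP synthase, had 0.92 and 0.58. Cox7a2l, known as a factor of respiratory supercomplexes, was lower, with -0.24 and -0.45. Cycling T cells were sequenced to a median of 3038 to 4064 UMIs per cell, beside 1430 to 1777 in γδ T cells; the part of depth in the result was not tested.

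By complex, all 17 nuclear members of complex V, 7 of 8 of complex III, 12 of 14 of complex IV, 29 of 36 of complex I and 3 of 4 of complex II were higher in cycling T cells. Among related genes, 9 of 11 genes of cytochrome c and the carriers were higher. They included Cycs, which encodes cytochrome c, with a log2 fold change of 1.08, and Cyc1, a complex III subunit outside the symbol rule, with 0.96. Of citric acid cycle genes 12 of 17 were higher, of glycolysis genes 10 of 17 (2 lower), and of mitochondrial ribosomal protein genes 39 of 78. These counts by complex and by related list use all cycling T cells. In γδ T cells the direction was the other one, with 11 of 11, 12 of 17, 9 of 17 (5 higher) and 52 of 78 lower. Cycling T cells are among the types that γδ T cells were compared with, so these are not separate results.

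**Figure D2:**
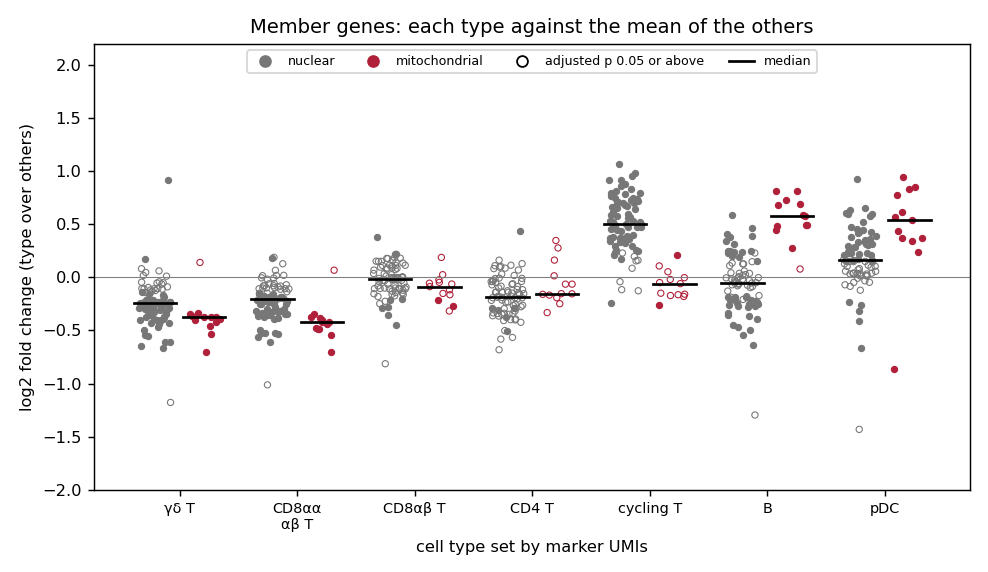
Log2 fold change of each tested member in each type against the mean of the other 6 types; filled points have an adjusted p under 0.05, open points do not, and bars are medians. In cycling T cells 74 of 79 nuclear members (grey) were above 0, with a median of 0.50, and of the mitochondrial members (red) 13 of 13 were above 0 in B cells and 12 of 13 in pDC. Values of Cox6a2 in pDC (11.97), CD4 T and cycling T cells and of Cox7a1 in cycling T cells (2.79) lie outside the axis.

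B cells separated the genomes. Of the mitochondrial members 12 of 13 were higher and 0 lower, with a median log2 fold change of 0.58, whereas 17 nuclear members were higher and 24 lower with a median of -0.05; 27.2% of all genes were called higher, 23.7% lower and 50.9% in either direction. The number of members called was 53, and 34 without cystine replicate 1. mt-Nd1, a core membrane subunit of complex I, was at 718, 731, 718 and 740 CPM in the 4 B cell samples and at 319 to 348 CPM in γδ T cells, so the types did not overlap (0.81, SE 0.07, edgeR adjusted p = 1.68e-12). mt-Nd2, of the same module, had 0.82, mt-Nd5 0.73 and mt-Cytb, the cytochrome b of complex III, 0.69. In the same cells nuclear complex I genes moved both ways, with 7 of 36 higher and 13 lower. Ndufs8, an iron-sulphur subunit, was among the higher (0.58). Ndufv3 (-0.64), Ndufa10 (-0.54) and Ndufa13 (-0.50), accessory subunits, were among the lower. Tfam, which packages mitochondrial DNA and helps to start its transcription, was higher in B cells (1.02, SE 0.13). Its part in the levels of the mitochondrial members was not tested.

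In pDC, 12 mitochondrial members were higher and 1 lower, and 39 nuclear members were higher and 5 lower, beside 27.9% and 27.3% of all genes (55.2% in either direction). The medians were 0.54 and 0.16. mt-Co1, the catalytic subunit of complex IV, was at 3509, 3297, 3872 and 3972 CPM, above the 1667 to 1991 CPM of γδ T cells in every sample (0.84, SE 0.06, edgeR adjusted p = 2.46e-14). mt-Nd4 had 0.95 and mt-Nd3 0.85. Uqcr11, a small subunit of complex III, was at 478, 467, 360 and 483 CPM (0.93, SE 0.09). Ndufa10 was at 95.7, 109, 85.6 and 109 CPM (-0.66, SE 0.10), and was thus lower in pDC and B cells and higher in CD8αβ T and cycling T cells. Tfam was lower in pDC (-0.71), in contrast to B cells.

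mt-Nd6 was the exception among mitochondrial genes. It is the only protein gene on the light strand of the mouse mitochondrial genome, and the other 12 lie on the heavy strand. It was at 23.4, 12.1, 19.7 and 17.4 CPM in pDC, from 12, 7, 18 and 22 UMIs, and at 26.9 to 37.1 CPM in γδ T cells. The values did not overlap, and mt-Nd6 was lower in pDC than in the mean of the other types (-0.86, SE 0.18, edgeR adjusted p = 0.000115). In the other 6 types its log2 fold change was between 0.07 and 0.28 and did not pass the test. Values above 0 there follow in part from the low value in pDC, which enters each comparison. mt-Nd6 was the mitochondrial member that did not pass in γδ T, CD8αα αβ T and B cells. mt-Nd4l and mt-Nd4, and mt-Atp8 and mt-Atp6, overlap on shared transcripts, so their separate counts are uncertain.

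**Figure D3:**
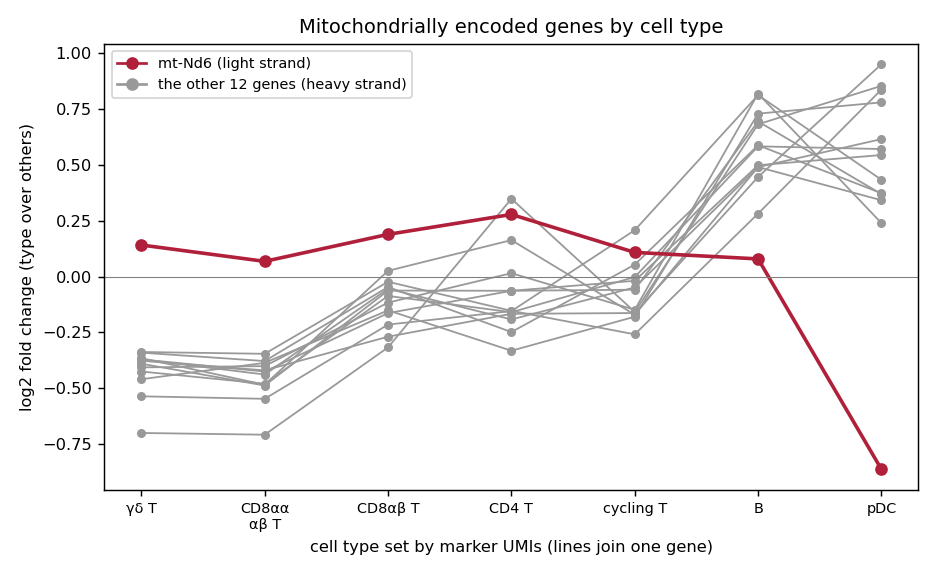
Log2 fold change of the 13 mitochondrial members in each type against the other 6 types; lines join the values of a gene. The 12 heavy-strand genes (grey) lay above 0 in B cells and pDC and below 0 in γδ T and CD8αα αβ T cells, whereas mt-Nd6 (red) was at -0.86 in pDC.

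The members that differed most between types were the complex IV isoforms Cox6a2 and Cox7a1 (13.4-fold between the highest and the lowest type), whereas the other isoforms named here were within the range of the remaining members. Cox6a2 was at 4022, 4333, 4273 and 4989 CPM in the 4 pDC samples and at 0 to 5.57 CPM in every sample of the other 6 tested types (log2 fold change 11.97, SE 0.11, edgeR adjusted p = 2.7e-38). Because the other types lie at or near 0 CPM, the size of this fold change is uncertain beyond what its SE shows. Cox6a2 was detected in 92.0%, 95.4%, 93.8% and 94.2% of pDC. The exact 95% intervals together run from 87.5% to 97.9%. In cells thinned to 1000 UMIs the shares were 88.4% to 94.2%. In γδ T cells, taken as the background of free RNA, the share was 0.156% to 0.576% at a median depth of 1430 to 1777 UMIs, beside 2484 to 3133 in pDC. Intervals cover counting error only. Of the types too small to test, conventional dendritic cells (7 to 23 cells per sample) held 26 Cox6a2 UMIs over the 4 samples, 107 CPM when pooled, and monocytes and macrophages and Ncr1+ cells held 1 UMI each. Between 64.7% and 77.8% of all Cox6a2 UMIs lay in pDC by the rule, and 97.3% to 98.9% in cells with a Siglech UMI, the marker that defines pDC there. Without Cox6a2 the nuclear share of complex IV was 0.768% ± 0.0463 in pDC and 0.717% ± 0.0452 in γδ T cells, and with it 1.16% ± 0.0615 in pDC.

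Cox6a1 did not pass the test in pDC, at 416, 451, 342 and 386 CPM in pDC and 306 to 370 CPM in γδ T cells (pDC against the others 0.03, SE 0.07, edgeR adjusted p = 0.743). It was highest in cycling T cells, at 542 to 744 CPM (0.83). Cox7a1, the heart and muscle form of subunit VIIa, was at 11.1, 9.11, 25.3 and 20.6 CPM in cycling T cells (2.79, SE 0.47), and Cox7a2, the liver form, was at 711 ± 52.7 CPM there (0.77). All cycling T values in this paragraph include the cells with epithelial or mast cell UMIs. Ndufa4 was higher in B cells (0.38) and pDC (0.17). Cox4i1, the common form of subunit IV, was highest in pDC at 1655 ± 49.6 CPM (0.58). Of the isoforms too low to test across types, Cox6b2 had 27, 28, 42 and 26 UMIs in all kept cells, Cox4i2 had 1, 1, 14 and 5, Cox8b had 1 UMI in all 4 samples, and Cox7b2, Cox8c and Ndufa4l2 had 0. Of the 4 succinate dehydrogenase genes, the mean level in the highest type over that in the lowest was 2.57 for Sdhc, 2.36 for Sdhd, 2.11 for Sdhb and 1.34 for Sdha, the flavoprotein, with cycling T cells highest for each. Sdha was lower in pDC (-0.26).

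**Figure D4:**
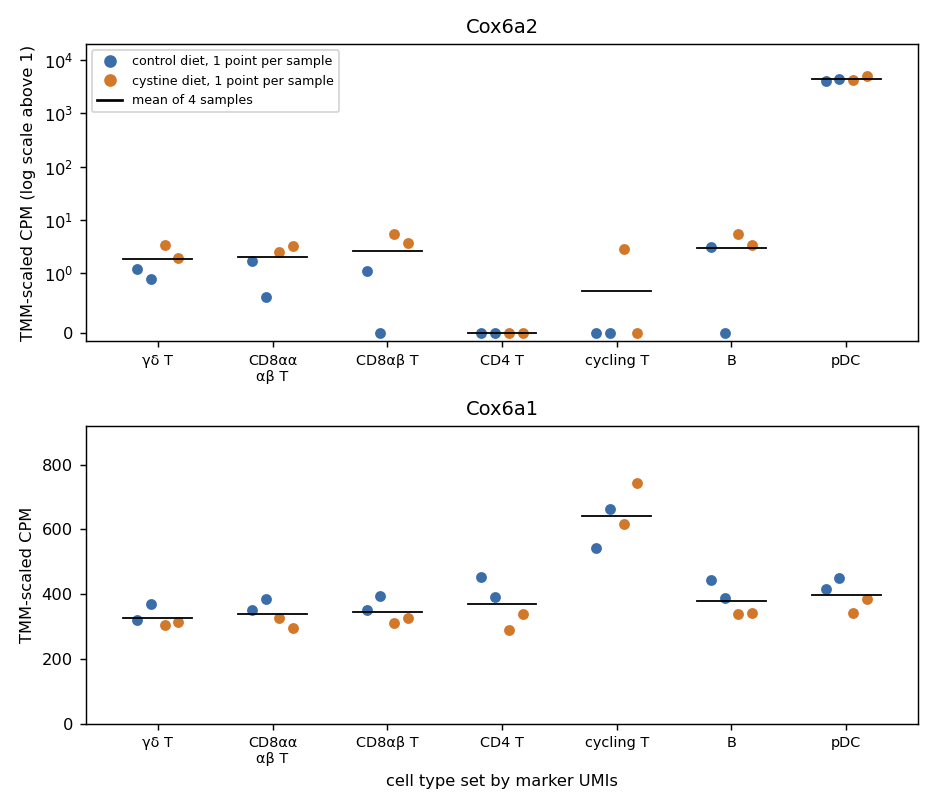
Level of Cox6a2 (top, logarithmic above 1 CPM) and Cox6a1 (bottom, linear) in each cell type; points are samples coloured by diet and lines are means of 4 samples. Cox6a2 averaged 4404 CPM in pDC and at most 3.02 CPM in the other types, whereas Cox6a1 was at 328 to 641 CPM in all types.

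The diets were compared over samples, 2 against 2, to ask whether cystine changed these genes. No member passed the test in all kept cells or in γδ T, CD8αα αβ T, CD8αβ T, CD4 T, B cells or pDC. The share of all genes called was 0.171%, 0.352%, 0.23%, 0.887%, 0.183%, 0.0309% and 0.0719% in that order, and at an unadjusted p under 0.05 there were 1, 3, 3, 7, 6, 2 and 1 members. DESeq2 called 1 member in all kept cells and 0 in each of the types. Whether diet acted differently in CD8αβ T than in γδ T cells was tested by edgeR's interaction term, which gave 0 members, where 0.768% of genes were called, with 3 at an unadjusted p under 0.05.

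With all 4 libraries the nuclear members lay mostly below 0. In γδ T cells 71 of 80 tested had a negative log2 fold change, with a median of -0.11 beside 0.00 over all genes. The numbers were 63 of 77 (-0.12) in CD8αα αβ T, 59 of 77 (-0.09) in CD8αβ T, 56 of 73 (-0.15) in CD4 T, 56 of 77 (-0.09) in B cells and 54 of 78 (-0.07) in pDC. These fits use the same 4 libraries, so the types are not independent of each other. Much of the shift rested on control replicate 2, without which the nuclear median was -0.01 in γδ T, -0.03 in CD8αα αβ T and -0.06 in CD8αβ T cells, 0.00 in pDC and 0.04 in all kept cells (main -0.08). Without cystine replicate 1 it was -0.01 in B cells, -0.04 in CD8αβ T cells and 0.06 in pDC. Uqcrh, the hinge protein of complex III, was at 959 and 1040 CPM in control and 786 and 856 CPM in cystine CD8αβ T cells (-0.28, SE 0.10, edgeR adjusted p = 0.273). Cox7a2l was at 319 and 324 CPM in control and 248 and 240 CPM in cystine CD8αβ T cells (-0.40, SE 0.11, edgeR adjusted p = 0.168), and at 262 and 305 against 238 and 214 CPM in γδ T cells (-0.33). Neither passed the test. The groups did not overlap in these cells, but 2 against 2 values often separate by chance. With a replicate block both were called in CD8αβ T cells, though the labels do not say that replicate numbers pair samples.

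Mitochondrial members differed in sign between types. In CD4 T cells all 11 tested were above 0, with a median of 0.57, and the mitochondrial share of UMIs was 0.893% and 0.765% in control and 1.24% and 1.10% in cystine samples, from 37 to 82 cells. mt-Cytb was at 1294 and 1117 CPM in control and 2021 and 1926 CPM in cystine CD4 T cells (0.70, SE 0.24, edgeR adjusted p = 0.46). The mitochondrial share did not overlap between the diets in B cells either (0.996% and 1.03% against 1.06% and 1.12%), nor in pDC and cycling T cells, each with cystine higher. With 2 samples per diet such separation is frequent by chance, and the types share the same 4 libraries. In B cells the separation held for shares of all UMIs. In the TMM-scaled fit of B cells 7 mitochondrial members were above and 6 below 0, with a median of 0.00. Among the types too small to test, conventional dendritic cells had the lower share with cystine (0.850% and 0.857% against 0.705% and 0.768%). Plasma cells had the higher share with cystine (0.240% to 0.432% against 0.436% to 0.488%). So did monocytes and macrophages (0.545% to 0.622% against 0.649% to 0.678%). The mitochondrial share overlapped in Ncr1+, γδ T, CD8αα αβ T and CD8αβ T cells. In CD8αβ T cells 10 of 13 mitochondrial members were below 0.

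In all kept cells Cox6a2 was at 133 and 133 CPM in control and 239 and 322 CPM in cystine samples (1.08, SE 0.16, edgeR adjusted p = 0.0878). The share of pDC among kept cells moved with it, at 1.46% and 1.44% in control and 2.48% and 3.22% in cystine samples. Within pDC, in a fit of these cells alone whose scaling differs from that across types, Cox6a2 was at 3653 and 3985 against 3845 and 4460 CPM (0.12, SE 0.08, edgeR adjusted p = 0.988), with overlapping groups. Sums over all cells cannot tell more cells of a type from more RNA per cell.

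The diet counts of 0 depended on single libraries. A fit without a library leaves 1 sample in a diet, and the share of all genes called there is not given. The members that then passed are listed with log2 fold changes only. Without cystine replicate 1 these were Cox6a2 (1.26) and mt-Atp8 (0.77) in all kept cells and mt-Atp8 (1.14) in B cells. Without cystine replicate 2 they were Cox6a2 (0.85) and Cox4i2 (3.56) in all kept cells, mt-Atp6 (0.91) in CD4 T cells and Atp5k (-0.84) in pDC. Without control replicate 1 they were Uqcrh (-0.48), Cox7a2l (-0.52), Cox8a (-0.34) and Atp5md (-0.51) in CD8αα αβ T cells. Among epithelial marker genes, 3 of 19 were higher with cystine in all kept cells, and 4 of 18 were higher and 2 lower in γδ T cells; their part in the members' differences was not tested.

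**Figure D5:**
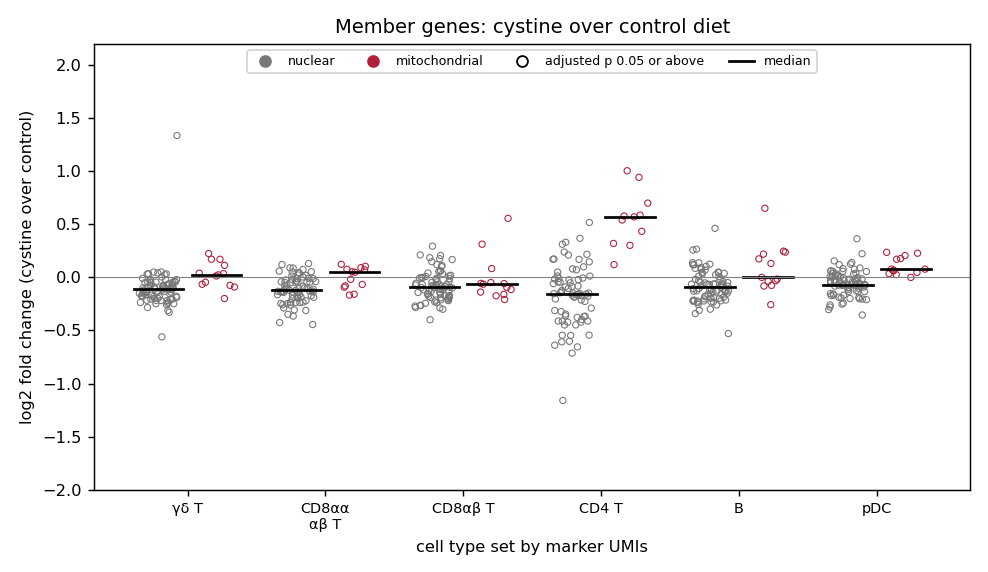
Log2 fold change, cystine over control, of each tested member in 6 cell types; open points did not pass the test and bars are medians. All points are open. Nuclear members (grey) had medians of -0.07 to -0.15, and mitochondrial members (red) were above 0 in CD4 T cells with a median of 0.57.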

How the data were processed

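The deposited files hold UMI counts per gene and barcode, as whole numbers and not normalized; the gene and barcode lists hold names only. Per the submitters' processing notes the authors used Cell Ranger 3.1.0, Seurat 4.0.1 and build GRCm39, whereas the matrix headers name version 7.0.1. Total counts were 27229695 to 31301936 UMIs per sample. A barcode was kept if 300 or more genes were detected in it and its mitochondrial UMIs made up no more than 10% (all mitochondrial genes are members, so this limit acts on them). Those with the highest Scrublet scores (scanpy) were removed as doublets at 0.8% per 1000 barcodes, which left 58702 of 68260. UMIs were summed per sample and cell type and tested with edgeR 4.0.16 (filterByExpr, TMM, glmQLFit, glmQLFTest), with adjustment over all genes tested. Shares of UMIs were described without a test. The code was tested on simulated data. Named genes were the mitochondrial members, the isoform pairs, the Sdh genes, the top nuclear member of each complex, and per comparison up to 6 called members in each direction with at least 20 CPM. Members, lists, tests and types were chosen with earlier results of these data known. Alternatives were other size factors, DESeq2 1.42.0, no low count filter, other cell filters, a replicate block, and each library left out; leaving out cells with epithelial or mast cell UMIs was chosen after seeing the data. The reference sequences are on another build than the counts and were matched by symbol.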

Additional observations from a re-analysis of the deposited data

Results flagged for a closer look

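A sample lay far from the other 3 of its cell type for 2 of the complex shares. Every share and the ratio were searched in each of the 7 tested types, and chance flags about 1 group in 20. The 2 flags are therefore no more than chance would give. The nuclear complex III share of γδ T cells was 0.259% in control replicate 2 and 0.228% to 0.231% in the other samples. The nuclear complex II share of cycling T cells was 0.0929% in cystine replicate 2 and 0.0715% to 0.0728% in the others; 33.4% of the cycling T UMIs of that library lay in cells with epithelial or mast cell UMIs.

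The nuclear complex I share moved in opposite directions with cystine in every sample of 2 types, by 0.0172 percentage points in CD8αβ T cells and by -0.0305 in B cells. The difference between these types was not tested. The opposite directions held for shares of all UMIs; in the TMM-scaled fits the median log2 fold change of nuclear complex I genes was below 0 in both types, at -0.07 (26 of 36 below 0) and -0.13 (25 of 36).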

How the results depend on the processing

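Among named members, the direction turned only for Sdhd (log2 fold change 0.0863) and Ndufs6 (0.10) against the other types in CD8αβ T cells of 1000 to 2000 UMIs, where neither passed the test; the cause was not tested. Numbers of members called moved most for CD8αβ T cells, from 10 to 19 with DESeq2 size factors, 18 under the stricter marker rule, 47 in cells of 1000 to 2000 UMIs (where CD4 T, cycling T cells and pDC had too few cells, so fewer types were compared), 26 with DESeq2 and 16 without cells with epithelial or mast cell UMIs. For CD4 T cells 6 became 2 with DESeq2 size factors and 3 with DESeq2, and 1 to 9 with a library left out. CD8αα αβ T cells had 39 in cells of 1000 to 2000 UMIs. B cells had 34 to 46 with a library left out. For the diets, all kept cells had 1 member called (Cox6a2) in cells of 1000 to 2000 UMIs, with DESeq2, and without cells with epithelial or mast cell UMIs. With a library left out the diet counts ranged from 0 to 2 in all kept cells, 0 to 4 in CD8αα αβ T, and 0 to 1 in CD4 T, B cells and pDC.

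Replicate numbers are shared by the diets, but the labels do not say that they pair samples, and deviations of same-numbered samples correlated at 0.02 in all kept cells and at -0.05 in CD8αβ T cells. With a replicate block 1 member was called in the sum of all kept cells (Cox6a2), 3 in CD8αβ T cells (Uqcrh, Cox7c and Cox7a2l), and 0 in the other types.

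Shares in B cells with at least 800 genes per cell were 2.62% nuclear and 0.979% mitochondrial, with a ratio of 0.375 and a diet difference of 0.0210 percentage points in the mitochondrial share; without a mitochondrial limit that difference was 0.144. In B cells of 1000 to 2000 UMIs the nuclear share was 2.21% and the ratio 0.485. In cycling T cells without epithelial or mast cell UMIs the nuclear share was 3.44% and the ratio 0.251. With immunoglobulin, receptor and ribosomal protein genes out of the total, the nuclear share was 3.31%, 3.32%, 3.80%, 3.82%, 4.96%, 3.37% and 4.18% in γδ T, CD8αα αβ T, CD8αβ T, CD4 T, cycling T, B cells and pDC, and the mitochondrial share 0.979%, 0.937%, 1.18%, 1.31%, 1.13%, 1.53% and 1.51%. The nuclear diet difference was then -0.171 in CD8αβ T and -0.169 in B cells, and the mitochondrial one 0.457 in CD4 T cells. Thinned to 1000 UMIs, 90.8% of pDC and 0.0607% of B cells had a Cox6a2 UMI. Not run because of too few cells were the stricter rule for CD4 T cells, the window of 1000 to 2000 UMIs for CD4 T, cycling T cells and pDC, and the limit of 800 genes for CD4 T cells. CD4 T cells rest on 37 to 82 cells per sample, and mt-Nd6 in pDC on 7 to 22 UMIs.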
